A study of Mus musculus with 2 samples.

Results

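Single-cell RNA-seq libraries were made from the dental pulp, the soft tissue inside the tooth, of C57BL/6 mice at postnatal day 12. A Vegfr2 knockout library came from mice with the gene deleted in endothelium, and a control library from control mice. Vegfr2 is the receptor through which vascular endothelial growth factor A signals. Both libraries came from sorted cells that excluded propidium iodide, a dye that enters dead cells. The driver of the deletion and the number of animals behind each library are not given in the sources used here. Described below are mesenchymal cells that carry UMIs (unique molecular identifiers, one per captured transcript) of type IX collagen genes and their companions, and 41 of them were found in the knockout library and 90 in the control library. They are 131 of 4012 cells that passed the filter and 131 of 619 gated mesenchymal cells.

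The cells were selected on measured values. Kept cells had 500 or more genes, 1000 or more UMIs and a mitochondrial share of UMIs up to 10%. It counted as mesenchyme with a UMI of at least 3 of the 7 genes Lum, Dcn, Pdgfra, Prrx1, Twist1, Sfrp2 and Postn and none of Ptprc, Cdh5, Sox10 and Notch3, genes of leukocytes, endothelium, glia and pericytes. The UMIs of 3 gene groups were then summed and compared in each cell. Sum A held Angpt4, Col9a1, Col9a3, Cnmd, Rspo4 and Scube1. Sum B held Cldn10, Pamr1, Irx5, Scara3, Ildr2 and Fmod, and sum C held Pcp4, Smoc2, Mfap4, Crabp1, Nell1 and Col8a2. A member had a sum A of at least 2 that exceeded both other sums. By the same comparison 175 knockout and 210 control cells were on the side of sum B (Cldn10/Fmod cells below), and 10 knockout and 78 control cells on the side of sum C (Pcp4/Smoc2 cells). The 18 genes of the sums and the gate genes chose the members, so their levels describe the choice and carry no test.

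Type IX collagen is built from 3 different chains, encoded by Col9a1, Col9a2 and Col9a3. It sits on the surface of thin collagen fibrils and is best known from cartilage, where it links type II and type XI collagen to the surrounding matrix. Odontoblasts are the cells at the rim of the pulp that lay down dentin, and they arise from pulp mesenchyme. Their mature state is known by dentin matrix genes such as Dspp and Dmp1.

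The knockout members held fewer UMIs per cell. They carried a median of 9986 UMIs per cell (range 1331 to 19549) and 404217 UMIs in all, against a median of 17203.5 (range 1131 to 36887) and 1570154 UMIs in control members. The median member showed 3479 genes in the knockout library and 4583 in the control library, and median mitochondrial shares were 5.19% and 4.69%. Levels are therefore given as CPM, the UMIs of a gene scaled to 1e+06 UMIs summed over the cells of a class. Kdr, the gene of Vegfr2, was read in endothelial cells, taken as kept cells with a Cdh5 UMI and none of Ptprc. It was at 561 CPM in 140 knockout cells and 943 CPM in 415 control cells, a ratio of 0.595 (interval 0.547 to 0.646), and 77.1% and 84.6% of these cells held a UMI. The 3′ tags may lie outside the deleted stretch, so this level does not check the deletion itself. The libraries shared 3 barcodes, and none of these was a member. Y-linked UMIs marked 10 knockout and 8 control members and Xist marked 24 and 76, so 29.4% of assigned knockout members and 9.52% of assigned control members were male. With 1 library per genotype no difference has a replicate check, no test was made, and all intervals are exact 95% intervals that cover counting error only.

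**Figure D1:**
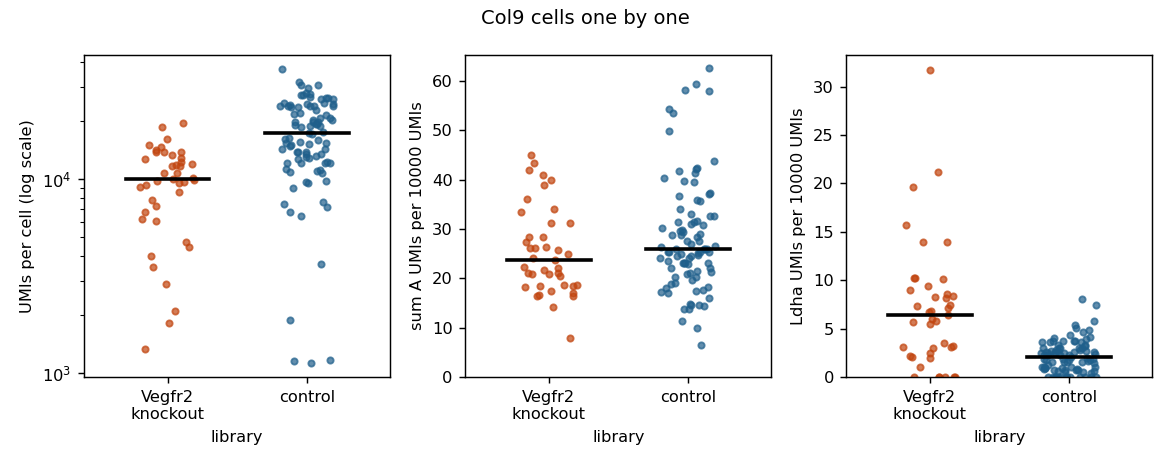
Each point is 1 member, Vegfr2 knockout left and control right, with the median as a bar. Panels show UMIs per cell on a log scale (medians 9986 and 17203.5), sum A per 10000 UMIs (medians 23.7 and 26.0) and Ldha UMIs per 10000 UMIs (medians 6.42 and 2.04). Depth and Ldha differ between the libraries, while sum A covers much the same range in both.

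Members were well clear of the threshold. None had a sum A of exactly 2, 1 knockout and 3 control members had 3, and the medians were 22 and 44 UMIs. Just outside, 24 knockout and 22 control mesenchymal cells had a sum A of 1. The choice turned on the comparison with the other sums: 154 knockout and 251 control cells had a sum A of at least 2 that was not the largest, with ties in 9 and 12 of them. A lead of 1 UMI decided 2 knockout and 3 control members. Per 10000 UMIs, sum A ranged from 8.03 to 45.1 in knockout members and from 6.53 to 62.5 in control members. No member rested on 1 gene. At least 5 of the 6 genes were seen in 25 of 41 knockout members, as 15 with 5 genes and 10 with 6, and in 65 of 90 control members, as 32 with 5 and 33 with 6.

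Angpt4 encodes an angiopoietin, a secreted ligand of the Tie2 receptor of blood vessels. It was at 1061 CPM in knockout members and 706 CPM in control members, 1.503 times as high (interval 1.34 to 1.68), and of the sum A genes it alone was higher in knockout members. Cldn10/Fmod cells held it too, at 318 and 307 CPM, so Angpt4 was not limited to the members. Leukocytes, taken as cells with a Ptprc UMI, had it at 8.66 and 15.7 CPM. Col9a3 was at 495 CPM in knockout members and 941 CPM in control members, a ratio of 0.526 (interval 0.451 to 0.610). Col9a1 was at 391 CPM in knockout members and 509.5 CPM in control members, a ratio of 0.767 (interval 0.643 to 0.911). In the 10 knockout and 8 control members with Y-linked UMIs these ratios were above 1, at 1.08 for Col9a3 and 1.72 for Col9a1.

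Rspo4, a secreted enhancer of Wnt signalling, was at 299 CPM in knockout members and 389 CPM in control members, with a ratio of 0.769 (interval 0.628 to 0.936). Scube1, which encodes a secreted and membrane-bound glycoprotein, was at 163 and 229 CPM (ratio 0.712, interval 0.539 to 0.928), and in members with Y-linked UMIs its ratio was 1.10. Cnmd encodes chondromodulin, a cartilage protein that inhibits vessel growth. It was at 139 and 170.05 CPM, and the interval of its ratio, 0.5995 to 1.09, included 1. A Cnmd UMI was seen in 21 of 41 knockout and 50 of 90 control members. After thinning to 4000 UMIs per cell, which left out 5 members of each library, it was seen in 38.9% and 34.1%. The share among leukocytes before thinning was 0.641% and 1.68% at median depths of 9610 and 15270 UMIs. All these levels follow from the rule and show only how its genes were shared out.

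**Figure D2:**
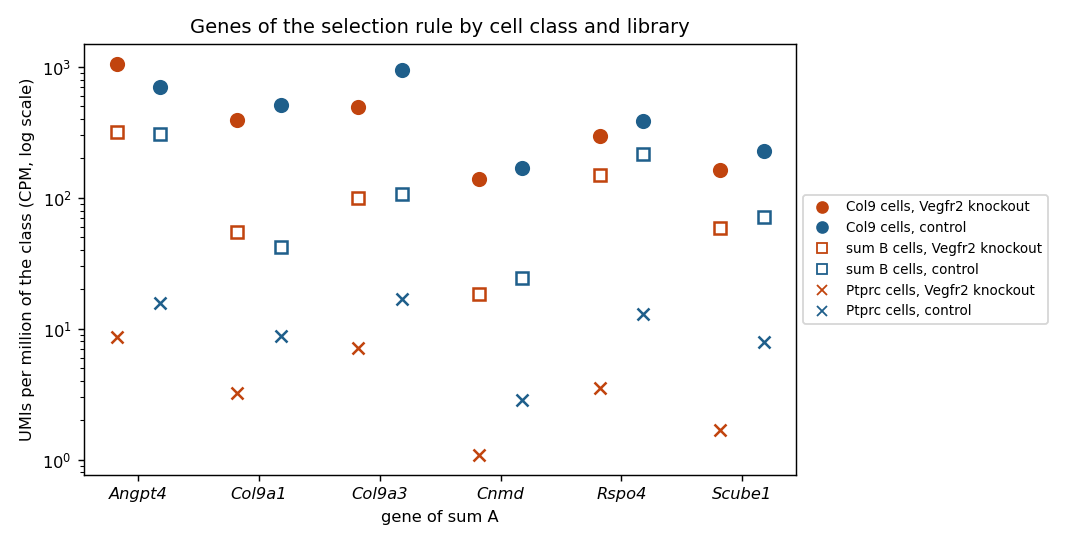
Levels of the 6 genes of sum A in CPM on a log scale, with Vegfr2 knockout left of control for each gene. Filled circles are members, open squares Cldn10/Fmod cells (sum B in the legend) and crosses cells with Ptprc. Members lie above both other classes by construction, and Angpt4 is the gene that is higher in knockout members, at 1061 against 706 CPM.

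Angpt4 and Rspo4 are neighbours in the genome. In the mouse build GRCm38, Rspo4 spans bases 151842927 to 151874668 of chromosome 2, plus strand, and Angpt4 spans, on the same strand, bases 151911210 to 151945337. The annotation places no gene in the 36541 bases between them, and both are protein-coding. Both were seen in 31 of 41 knockout members and in 69 of 90 control members. Col9a3 lies further along chromosome 2 (180597790 to 180622189), Col9a1 on chromosome 1, Cnmd on chromosome 14 and Scube1 on chromosome 15. The 250 bases before the start of Angpt4 are shown because this gene leads the rule and differs from the others in direction. They span chr2:151910957-151911206 on the plus strand in RefSeq's GRCm38.p6, and capitals mark TATAAA, searched on both strands.
Angpt4: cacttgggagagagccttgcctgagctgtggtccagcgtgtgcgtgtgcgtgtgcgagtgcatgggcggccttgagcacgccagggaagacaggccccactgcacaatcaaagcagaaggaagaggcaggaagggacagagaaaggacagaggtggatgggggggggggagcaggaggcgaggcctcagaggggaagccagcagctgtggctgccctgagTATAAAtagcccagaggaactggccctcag
The match begins 30 bases before the start. These letters occur in 12.4% of the 32851 promoter windows of this length.

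The label of these cells places them near the odontoblast lineage, and the genes that define odontoblasts were detected in part. Of 10 odontoblast markers, Dspp, Dmp1, Mepe and Ifitm5 were at 0 UMIs in knockout members, and Dmp1 and Mepe were at 0 in control members too. Dspp, a defining matrix gene of dentin, had 30 UMIs in 14 of 90 control members. Phex, an endopeptidase of mineralising cells, was at 4.95 CPM in knockout members and 5.10 CPM in control members, and these levels were 0.191 and 0.157 times those of the other mesenchyme. Against the Cldn10/Fmod cells alone they were 0.176 and 0.0966 times, while the Pcp4/Smoc2 cells held 0 and 1 Phex UMIs. Markers seen in at least 10% of members were 3 of 10 in the knockout library and 5 of 10 in the control library. Among them, the intermediate filament gene Nes was seen in 33 of 41 and 79 of 90 members and Sp7, a transcription factor of bone and dentin cells, in 22 and 67. They are called Col9-expressing cells here.

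The genes of cartilage were also present in part. Of 10 cartilage markers found in the files, 4 were at 0 UMIs in knockout members and 3 in control members, with Comp, Matn1 and Ucma at 0 in both. Acan, the large proteoglycan of cartilage, had 6 UMIs in 3 knockout members and 41 UMIs in 21 control members. Sox9, the transcription factor that drives cartilage genes, was at 985 and 789 CPM, 0.89 and 1.05 times its level in the other mesenchyme. The second chain of type IX collagen, Col9a2, was not part of the rule. It was at 1044 CPM in knockout members and 1535 CPM in control members, 1.503 and 1.65 times the other mesenchyme. Cldn10/Fmod cells held Col9a2 too, at 695 CPM in the knockout library and 1135 CPM in the control library, so it was not limited to the members.

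Genes outside the rule also set the members apart in both libraries. Against the rest of the gated mesenchyme (194 knockout and 294 control cells), 182 of 8857 genes (2.05%) were at least 1.5-fold higher in members of both libraries, and 421 (4.75%) were at least 1.5-fold lower. A gene was counted with at least 20 UMIs over members and rest in each library. Under the stricter cell filter, which asks for 1000 genes, 2000 UMIs and a mitochondrial share up to 5%, these counts were 59 and 49, from 18 knockout and 47 control members. Of the 13 measured cartilage genes 3 were higher in both, Col9a2, the fibril collagen gene Col11a2 (1.88 and 2.49 times the rest) and the Sox9 partner Sox5 (1.62 and 2.05 times), and none was lower. Of 23 measured odontoblast and dentin genes, Nes was higher (2.11 and 1.64 times) and 4 were lower.

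Genes of ion channels and cell adhesion were among the 25 named as highest in members. Opcml, a cell adhesion molecule, was at 74.2 CPM in knockout members and 9.05 CPM in the other knockout mesenchyme, and at 82.2 and 3.32 CPM in the control library. The ratios of members to the rest were 8.202 (interval 4.22 to 16.7) and 24.7 (interval 13.7 to 49.1). Its UMIs came from 14 of 41 knockout and 38 of 90 control members, so most members showed none. Kcnn3, a calcium-activated potassium channel, was 6.08 and 3.88 times the rest. Piezo2, a mechanically gated ion channel, was 3.48 and 3.79 times the rest. Grin3a, a glutamate receptor subunit, was 2.93 and 2.46 times the rest, but 0.585 times in the knockout cells with Y-linked UMIs. The comparison class matters here: against the 10 knockout Pcp4/Smoc2 cells alone, Opcml was 0.715 times, Piezo2 0.953 times and Grin3a 0.620 times as high in members, while Kcnn3 was 1.72 times as high, and all 4 intervals include 1. Against the 78 control Pcp4/Smoc2 cells the ratios were 56.4 for Opcml, 2.61 for Piezo2, 1.23 for Grin3a and 11.2 for Kcnn3.

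Matrix and developmental genes were on the same list. Nid2 encodes nidogen-2, a linker protein of basement membranes. It was at 269.7 CPM in knockout members and 73.7 CPM in the other knockout mesenchyme, and at 319.7 and 91.3 CPM in the control library. These are ratios of 3.66 (interval 2.79 to 4.80) and 3.501 (interval 3.04 to 4.04), and Nid2 was seen in 33 of 41 and 75 of 90 members. Col12a1, a fibril-associated collagen, was 2.63 and 2.11 times the rest. The transcription factor genes Irx3 (2.90 and 2.49 times) and Snai1 (2.96 and 2.01 times) and the homeodomain gene Hopx (2.96 and 5.43 times) were higher in both libraries. Against the Pcp4/Smoc2 cells alone, Col12a1 was 0.854 and 1.21 times and Snai1 1.30 and 1.32 times as high in members. Nid2 was 6.93 and 3.99 times as high in that comparison. Irx3 and Hopx were 2.96 and 7.37 times as high in the control library, and the knockout Pcp4/Smoc2 cells held neither. In the knockout library Irx3 was 0.711 times the rest under the stricter filter, and Hopx was 0.930 times among cells with Y-linked UMIs. Among dental transcription factors, 4 of 18 measured were higher in both, among them Lhx8, Twist2 and Irx3, and 1 was lower. Rab3b, a vesicle GTPase, was 2.05 and 2.60 times the rest, and Xpr1, a phosphate exporter, 2.05 and 2.21 times.

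Of the 15 genes named as lowest, some were nearly absent from members and others were present at a lower level. Coch, a secreted matrix protein, was at 4.95 CPM in knockout members and 76.9 CPM in the rest, and at 0.637 and 54.2 CPM in the control library. Trf, which encodes the iron carrier transferrin, was at 376 and 2288 CPM in the knockout library and at 138 and 1048 CPM in the control library, ratios of 0.164 and 0.131. Gpx3, a secreted glutathione peroxidase, was 0.112 and 0.162 times the rest, and the chemokine gene Cxcl14 0.118 and 0.0281 times. Against the Pcp4/Smoc2 cells alone, Trf in members was 4.83 and 1.85 times as high, so its low ratio reflects the Cldn10/Fmod cells, which made up 175 of the 194 other knockout cells and 210 of the 294 other control cells. Gpx3 was 2.86 and 0.841 times as high as in the Pcp4/Smoc2 cells, and both intervals include 1.

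**Figure D3:**
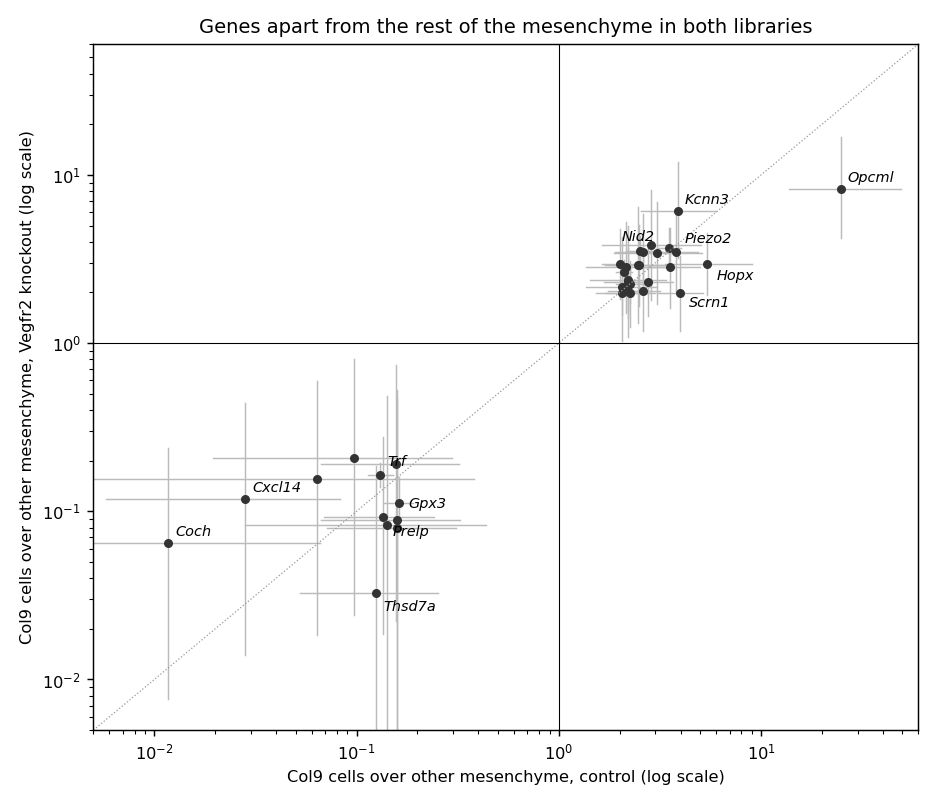
Ratio of members to the other gated mesenchyme in the Vegfr2 knockout library (vertical) and in the control library (horizontal) on log axes, for the named genes with UMIs in members of both libraries. Grey lines are exact 95% intervals for counting error. Opcml, Kcnn3 and Piezo2 lie to the upper right and Coch, Cxcl14 and Thsd7a to the lower left, and all points are on the same side of 1 in both libraries by the rule that named them.

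Cells near each other in expression were compared within each library on 1000 variable genes outside the rule. Of the 10 nearest mesenchymal cells of a member, 52.4% were members in the knockout library and 73.9% in the control library, where members made up 17.4% and 23.4% of the mesenchyme. The neighbours of Cldn10/Fmod cells were members in 8.63% and 10.7%. Those of Pcp4/Smoc2 cells were members in 41.0% of cases in the knockout library, from 10 cells, and in 16.3% in the control library. The genes of sum C differed within the members too: Pcp4, which encodes a calmodulin-binding protein, was at 17.3 CPM in knockout members and 189.8 CPM in control members. These shares and levels are descriptions, since the classes were cut from the same cells.

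The share of Col9-expressing cells among kept cells was lower in the knockout library. In the knockout library 41 of 1683 kept cells were members, 2.44% (interval 1.75 to 3.29%), and in the control library 90 of 2329, 3.86% (interval 3.12 to 4.73%), a ratio of 0.630 (interval 0.425 to 0.922). Within the gated mesenchyme the shares were 17.4% (interval 12.8 to 22.9%) and 23.4% (interval 19.3 to 28.0%), a ratio of 0.744 whose interval, 0.502 to 1.09, included 1. The share of mesenchyme did not keep its direction: under the stricter cell filter 18 of 34 knockout cells (52.9%) and 47 of 151 control cells (31.1%) were members, a ratio of 1.70. In cells with Y-linked UMIs the ratio was 1.25, from 10 of 44 knockout and 8 of 44 control cells, and in cells with Xist it was 0.612. Of kept cells, the ratio was below 1 in all 11 alternatives, between 0.597 and 0.923. Among these, asking for a sum A of at least 3 left the members unchanged, and all of them reuse the same libraries. The rule compares sums of UMIs of which several genes differed between the libraries, so the share and those levels cannot be told apart.

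**Figure D4:**
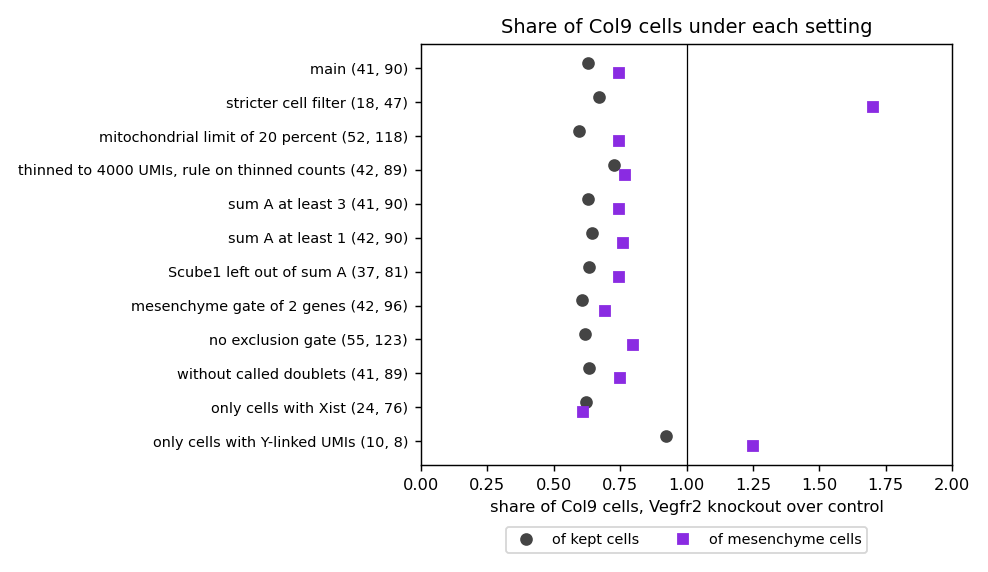
Ratio of the share of Col9-expressing cells, Vegfr2 knockout over control, under each setting, with the numbers of members (knockout, control) in brackets. Circles are shares of all kept cells and squares shares of gated mesenchyme. The squares for the stricter filter (1.70) and for cells with Y-linked UMIs (1.25) lie above 1, and the other points lie below it.

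Between the libraries, members were compared gene by gene on summed UMIs. Of 8859 genes that reached 20 UMIs in the libraries together, 1256 (14.2%) were at least 1.5-fold higher in knockout members and 1574 (17.8%) at least 1.5-fold lower. Of these, 637 (7.19%) had an interval wholly above 1 and 458 (5.17%) wholly below it. The median log2 ratio was −0.04. When members were thinned to 4000 UMIs the counts were 674 and 725, from fewer UMIs. In the Cldn10/Fmod cells 996 of 10371 genes (9.60%) were at least 1.5-fold higher in the knockout library and 1180 (11.4%) lower.

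Glycolysis genes, which turn glucose into lactate and ATP, were higher in knockout members. Of 16 measured, 12 were higher by 1.5-fold or more and none was lower by that much, and the median log2 ratio was 0.96. Ldha, which makes lactate, was at 846 CPM in knockout members and 234 CPM in control members, a ratio of 3.61 (interval 3.11 to 4.19). Cell by cell it ranged from 0 to 31.7 per 10000 UMIs with a median of 6.42 in knockout members, and from 0 to 8.04 with a median of 2.04 in control members. The libraries overlap, and the values above 8.04 all belong to knockout cells. Tpi1 was at 621 and 149.7 CPM (ratio 4.15), Pfkl at 168 and 44.6 CPM (ratio 3.77), Eno1 at 364 and 119.7 CPM (ratio 3.04) and Aldoa at 450.3 and 159.9 CPM (ratio 2.82), all enzymes of the same chain. Gapdh was 1.98 times as high. Hk1, Hk2, Pfkp and Pgk1 were within 1.5-fold.

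Further genes known to respond to low oxygen went the same way. Of 15 measured on a list without glycolytic enzymes, 12 passed 1.5-fold upward and none downward, and their median was 1.01. Vegfa, the ligand of the receptor that was knocked out in endothelium, was at 205 CPM in knockout members and 42.7 CPM in control members, a ratio of 4.81 (interval 3.45 to 6.74). A Vegfa UMI was seen in 27 of 41 knockout members (65.9%) and 42 of 90 control members (46.7%), and after thinning in 55.6% and 14.1%. The unthinned shares among leukocytes were 20.7% and 9.95%. Ankrd37, a hypoxia-induced gene, had 20 UMIs in 12 knockout members and 4 UMIs in 3 control members. Ddit4, an inhibitor of growth signalling, was 2.77 times as high, the mitophagy gene Bnip3 1.996 times and the collagen hydroxylase gene P4ha2 1.85 times. Of the subunits of the respiratory chain, which uses oxygen, 25 of 26 were within 1.5-fold, 1 was lower and the median was −0.21.

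These differences were not limited to the Col9-expressing cells. In Cldn10/Fmod cells, 13 of 18 measured glycolysis genes were at least 1.5-fold higher in the knockout library, with a median of 1.13, and 8 of 15 hypoxia genes, with a median of 0.61. Ldha was at 652 CPM in knockout and 250.1 CPM in control Cldn10/Fmod cells, a ratio of 2.61. Vegfa was at 237 and 109.6 CPM there, a ratio of 2.16. Whether the ratios differ between the cell classes was not tested. In members the glycolysis median lay between 0.87 and 1.92 over all alternatives and the hypoxia median between 0.78 and 1.42.

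The promoters of 2 glycolysis genes are shown because most genes of their list were higher. Both had lower ratios than Ldha, Tpi1, Pfkl, Eno1 and Aldoa. Pgam1 encodes phosphoglycerate mutase and was at 344 CPM in knockout members and 196 CPM in control members, a ratio of 1.75. Pgk1 encodes phosphoglycerate kinase and was at 126 and 84.7 CPM, a ratio of 1.49, just under the 1.5-fold limit. The windows are chr19:41911621-41911870 and chrX:106186850-106187099, both on the plus strand of GRCm38.p6 and credited to RefSeq. Capitals mark ACGTG and GCGTG on either strand, the core letters to which hypoxia-inducible factors are known to bind.
Pgam1: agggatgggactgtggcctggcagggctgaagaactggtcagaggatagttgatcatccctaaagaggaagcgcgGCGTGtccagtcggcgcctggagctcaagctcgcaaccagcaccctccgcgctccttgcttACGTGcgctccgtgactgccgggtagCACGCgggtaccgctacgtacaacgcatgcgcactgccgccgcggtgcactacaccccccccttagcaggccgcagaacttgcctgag
Pgk1: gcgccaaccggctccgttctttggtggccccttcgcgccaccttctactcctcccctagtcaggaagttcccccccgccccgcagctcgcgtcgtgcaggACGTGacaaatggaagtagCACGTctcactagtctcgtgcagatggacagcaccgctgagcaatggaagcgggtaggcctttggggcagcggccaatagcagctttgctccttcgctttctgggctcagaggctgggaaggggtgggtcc
Of the genes on each list, 18 of 19 for glycolysis and 15 of 19 for hypoxia had windows in the table. At least 1 of these motifs was found in 22 of the 27 glycolysis windows and in 18 of the 23 hypoxia windows, and in 38.6% of all 32851 windows. ACGTG alone was found in 11 glycolysis windows (40.7%), in 12 hypoxia windows (52.2%) and in 16.6% of all windows. Some genes have several windows, and windows of Eno1 and of Aldoa overlap, so a site can count more than once. Forward and reverse ACGTG overlap wherever the letters CACGTG occur. The window of Tpi1, a gene with a larger ratio, held neither motif. A match describes letters and shows no binding.

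Immediate early genes, which are switched on within minutes by growth signals or stress, were higher in knockout members. Of 19 measured, 15 passed 1.5-fold upward and none downward, and the median was 1.396. Egr1 was at 720 CPM in knockout members and 236 CPM in control members (ratio 3.06, interval 2.61 to 3.57), Fos at 898 and 440.1 CPM (ratio 2.04) and the heat shock gene Hspa1a at 272 and 82.8 CPM (ratio 3.29). Egr3, a relative of Egr1, had a ratio of 23.3, with 30 UMIs in 11 knockout members and 5 UMIs in 5 control members. This list did not hold in every subset: in members with Y-linked UMIs its median was −0.23, with Fos at 0.669 and Hspa1a at 0.854, from 10 knockout and 8 control cells. In Cldn10/Fmod cells 5 of 21 were higher and 1 was lower, with a median of 0.26 and a Fos ratio of 0.932.

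In knockout members, genes that hold back the cell cycle were partly higher and cell cycle genes were lower. Of 16 measured brakes and p53 targets, 7 were at least 1.5-fold higher (43.8%, against 14.2% over all genes). Of the same genes 2 were lower (12.5%, against 17.8%) and the median was 0.52. Cdkn1c, which encodes the cell cycle inhibitor p57, was at 1452 CPM in knockout members and 920 CPM in control members, a ratio of 1.58 (interval 1.43 to 1.74), against 1.02 in Cldn10/Fmod cells. The stress gene Gadd45b had a ratio of 4.98 and the kinase gene Plk2 of 3.79. Among 15 measured genes of the cell cycle, 10 were lower by 1.5-fold or more (66.7%, against 17.8% over all genes) and none higher, with a median of −1.16. They held 66 UMIs in knockout members and 636 UMIs in control members. A single control member held 183 of these, 28.8%, among them 32 of the 42 Mki67 UMIs. Without it 5 of 10 measured genes were lower and the median was −0.66. In Cldn10/Fmod cells 4 of 11 measured cell cycle genes were higher and none lower, with a median of 0.03. In all the other gated mesenchyme, which includes 10 knockout and 78 control Pcp4/Smoc2 cells, 28 of 30 were lower, with a median of −2.27. Lower cell cycle genes were thus not particular to the members. The replication gene Mcm3 had no UMI in knockout members and 36 UMIs in 19 control members. With 3 counts over the class taken as the floor it was 3.09-fold lower, and its interval reached down to 2.39-fold.

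Small leucine-rich proteoglycans bind collagen fibrils, and of the 6 measured, 3 were at least 1.5-fold lower in knockout members and 1 was higher. Omd, which encodes osteomodulin, a proteoglycan of mineralised tissue, was at 203 CPM in knockout members and 1089 CPM in control members, a ratio of 0.186 (interval 0.147 to 0.233). It was seen in 27 of 41 and 84 of 90 members, and after thinning in 58.3% and 88.2%. Leukocytes had it in 2.24% and 6.74% before thinning. Ogn, which encodes osteoglycin, was at 205 and 650.3 CPM, a ratio of 0.316 (interval 0.249 to 0.395). In Cldn10/Fmod cells the ratios were 0.445 for Omd and 0.623 for Ogn. Over the alternatives Omd lay between 0.163 and 0.330 and Ogn between 0.2198 and 0.764.

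Omd and Ogn lie side by side on chromosome 13, with Ecm2 and Aspn before them on the same strand and no other protein-coding gene between. Omd spans 49582462 to 49592822 and Ogn 49608046 to 49624501 in GRCm38. Ecm2, an extracellular matrix protein gene, had a ratio of 0.525 from 5 knockout and 37 control UMIs. Aspn, which encodes asporin, had a ratio of 0.963, and its values over the alternatives lay between 0.479 and 3.27. The 250 bases before Omd and Ogn are shown because both genes were lower. They are chr13:49582212-49582461 and chr13:49607765-49608014 on the plus strand in RefSeq's GRCm38.p6, and capitals mark TATAAA on either strand, whose 2 matches before Ogn overlap.
Omd: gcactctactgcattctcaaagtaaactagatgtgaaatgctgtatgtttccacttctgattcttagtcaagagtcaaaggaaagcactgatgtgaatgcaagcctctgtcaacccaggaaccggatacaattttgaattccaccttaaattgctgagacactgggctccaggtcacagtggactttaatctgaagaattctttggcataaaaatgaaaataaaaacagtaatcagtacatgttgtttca
Ogn: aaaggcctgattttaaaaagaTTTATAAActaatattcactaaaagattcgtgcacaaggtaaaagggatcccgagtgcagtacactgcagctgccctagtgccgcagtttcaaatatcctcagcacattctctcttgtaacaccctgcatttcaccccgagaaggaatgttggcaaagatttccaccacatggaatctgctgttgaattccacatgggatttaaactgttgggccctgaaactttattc

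Col2a1, which encodes type II collagen, had no UMI in 41 knockout members and 84 UMIs in 32 of 90 control members. On the same floor it was 7.21-fold lower, and its interval reached down to 5.73-fold. Of the control UMIs, 74 came from the 38 control members with a Pcp4 UMI, a kind of member of which the knockout library held 4. Among members without Pcp4 it had 0 UMIs in 37 knockout and 10 UMIs in 52 control members. The floor puts it 1.35-fold lower there, short of the 1.5-fold limit, and so few UMIs set no minimum for the difference. Pcp4/Smoc2 cells held Col2a1 at 51.9 CPM in the knockout library and 90.4 CPM in the control library. After thinning, no knockout and 13 of 85 control members (15.3%) showed it, and 0.919% of control leukocytes had it before thinning. Of 17 measured cartilage genes 5 were lower by 1.5-fold or more in knockout members (29.4%), 2 were higher (11.8%) and the median was −0.18. Over all genes 17.8% were lower and 14.2% higher. Col9a2 was within 1.5-fold, with a ratio of 0.680 (interval 0.612 to 0.755), while Col11a1 had a ratio of 0.549 and the matrilin gene Matn4 one of 1.87. Of 18 other collagen chains 5 were lower (27.8%, against the same 17.8% over all genes) and none higher. The lower ones included Col6a2 and Col6a3, chains of the beaded type VI filaments, at 0.661 and 0.630, and Col16a1 at 0.660. In members with Y-linked UMIs the ratios of Col6a3 and Col16a1 were 1.19 and 1.06. Col1a1, the main chain of type I collagen, was at 5537 and 5710 CPM.

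Chaperones of the endoplasmic reticulum, where collagen is folded, were lower in part. Of 19 measured genes of endoplasmic reticulum stress, 8 were at least 1.5-fold lower, 3 were higher and the median was −0.46. Hsp90b1 was at 529 CPM in knockout members and 940.0 CPM in control members (ratio 0.563, interval 0.486 to 0.650), Calr at 527 and 820.3 CPM (ratio 0.642) and Pdia4 had a ratio of 0.486. The list had a median of −0.44 in Cldn10/Fmod cells, where Hsp90b1 had a ratio of 0.668.

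Of 23 measured BMP and TGF-beta genes, 8 were at least 1.5-fold higher in knockout members, none was lower and the median was 0.24. The ligand genes Bmp4 (ratio 2.29), Tgfb1 (1.61) and Tgfb3 (1.55) and the response genes Id1 (1.52) and Id4 (1.72) were among them, and Id4 was at 0.842 in members with Y-linked UMIs. Bmp2, another ligand gene, was at 802 and 631 CPM, a ratio of 1.27. Among 17 Wnt genes 3 were higher (17.6%) and 4 lower (23.5%), near the 14.2% and 17.8% over all genes. Wif1, a secreted Wnt inhibitor, was at 176 and 328 CPM (ratio 0.536, interval 0.412 to 0.687). Of 6 measured Hedgehog genes 3 were lower. Gli1, whose level reads out Hedgehog signalling, had 2 UMIs in 1 knockout member and 45 UMIs in 29 control members, a ratio of 0.173 (interval 0.0203 to 0.661), and the receptor gene Ptch1 had a ratio of 0.661, or 1.15 in members with Y-linked UMIs. Of 7 Notch genes 3 were higher, among them the target Hes1 at 544 and 285 CPM (ratio 1.91).

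Of 14 measured ligands that act on vessels, 3 were higher, Vegfa, Thbs1 and Efna1, and 3 were lower. These shares, 21.4% each, are near the 14.2% and 17.8% over all genes. Thbs1, which encodes the vessel inhibitor thrombospondin-1, had a ratio of 1.999. Angpt1, the agonist of Tie2, had 2 UMIs in 2 knockout members and 63 UMIs in 31 control members, a ratio of 0.123 (interval 0.0146 to 0.464), against 0.9403 in Cldn10/Fmod cells. Angpt4, its relative in the rule, was higher in knockout members, as given above. Among members without a Pcp4 UMI, 37 knockout and 52 control, the Angpt1 ratio was 0.126.

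Of 20 measured dental transcription factors 4 were at least 1.5-fold higher, 2 were lower and the median was 0.08. These shares, 20% and 10%, are near those over all genes, 14.2% and 17.8%. The higher ones included Dlx2 (ratio 1.91), Dlx1 (1.54) and Tbx3 (1.52), all regulators of tooth development, and Dlx2 was at 0.546 in members with Y-linked UMIs. Pitx1 had no UMI in knockout members and 25 in control members. Of 22 measured odontoblast and dentin genes, 3 were higher, Klf4 (2.33), Msx1 (1.62) and the phosphate transporter gene Slc20a1 (2.84), 2 were lower and the median was 0.15, shares of 13.6% and 9.09% that do not exceed those over all genes. Msx1 was at 0.796 in members with Y-linked UMIs. Panx3, a channel of maturing bone and dentin cells, had 7 UMIs in knockout members and 125 UMIs in control members (ratio 0.218, interval 0.0857 to 0.462). Dspp, with the 0 and 30 UMIs given above, was 2.57-fold lower on the floor of 3 counts, which is not a minimum.

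**Figure D5:**
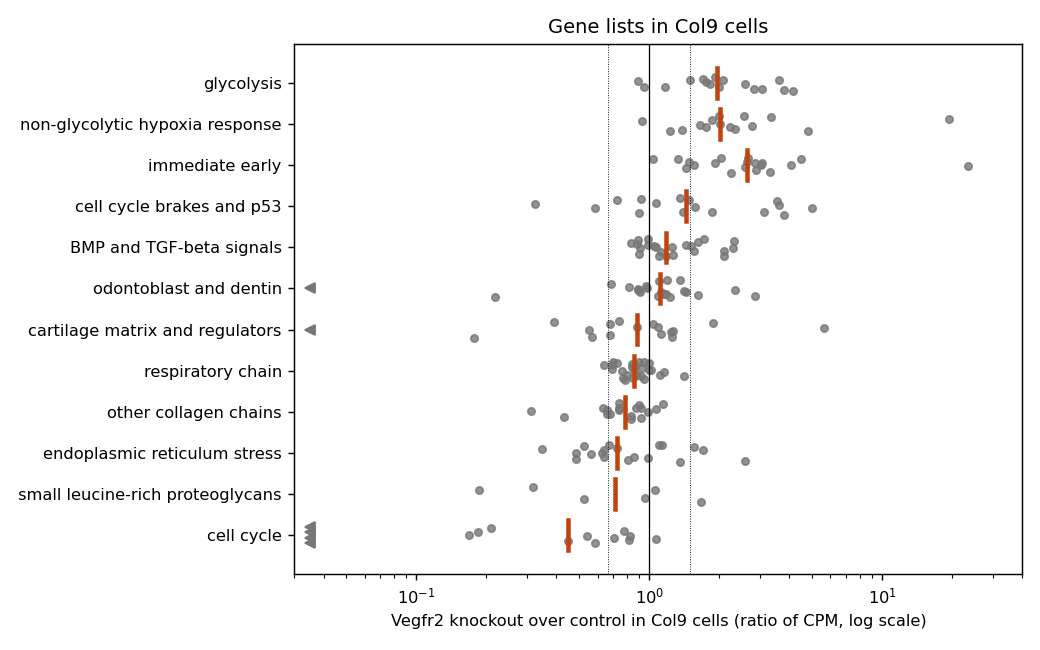
Ratio of CPM, Vegfr2 knockout over control, on a log axis for each measured gene of 12 lists (points) in Col9-expressing cells, with the list median as a bar and dotted lines at 1.5-fold. Triangles at the left edge are genes with no knockout UMI. The medians of glycolysis, hypoxia and immediate early genes lie to the right of the limit (log2 medians 0.96, 1.01 and 1.396) and that of cell cycle genes to the left (−1.16).

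The histone gene Hist1h2ac was at 163 CPM in knockout members and 10.8 CPM in control members, and the G protein regulator gene Rgs16 at 104 and 5.73 CPM. Nabp1, Caprin2, Pou3f1 and C730034F03Rik had ratios between 6.99 and 12.4. A single knockout member held 52.9% of the Fam46a UMIs, and without that member the ratio was 3.69 in place of 7.55. Gstp1 and Gm10076 were 11.9 and 8.93 times as high in members and 14.2 and 8.47 times in Cldn10/Fmod cells. The matrices were written by different versions of the counting software, so version and genotype cannot be told apart for any gene. Gstp1 also has a near-identical neighbouring copy, so its value is uncertain. Ptn, which encodes the growth factor pleiotrophin, was at 374 and 1060.4 CPM (ratio 0.352), or 0.836 in members with Y-linked UMIs. Tsix, which overlaps Xist on the other strand, had a ratio of 0.108, and of 0.163 in members with Xist. Ambn and Khdrbs3 had ratios of 0.269 and 0.166, and Rrs1 and Maob had no knockout UMI.

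Markers of other cell types were counted in the members. Endothelial markers held 17 UMIs in knockout members and 79 in control members (42.1 and 50.3 CPM), with 5 and 1 of 10 genes at 0, and the 4 red cell markers held none. Macrophage markers were at 136 CPM in knockout members (55 UMIs) and 62.4 CPM in control members (98 UMIs), and glia markers at 312 and 231 CPM. Mural markers were at 233 and 196 CPM. At 0 UMIs were 2 and 1 of 10 macrophage genes, 2 and 0 of 10 glia genes and 3 and 2 of 10 mural genes. Epithelial markers were at 76.7 and 232 CPM, nearly all from the enamel gene Ambn, with 9 and 8 of 12 genes at 0. Dental follicle markers were at 458 and 1191 CPM, mostly from Ptn, with 5 and 4 of 10 genes at 0. The part of these RNAs in the differences above was not tested.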

How the data were processed

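Sorted dental pulp cells were profiled with 10x Genomics Chromium 3′ v3.1, per the labels' protocols. The deposited matrices hold counts of UMIs per gene and barcode for 31053 genes, not normalized. Per the submitters' processing notes, Cell Ranger 6.0.1 and the mm10 build were used, and per the file headers the knockout matrix was written by version 6.0.1 and the control matrix by version 5.0.0. The libraries held 2563 knockout and 3487 control barcodes, with 17277162 and 35918862 UMIs, and 811 and 1053 barcodes exceeded the mitochondrial limit.

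From the counts, UMIs were summed over the cells of a class and library. Ratios carry exact conditional Poisson intervals and shares exact Clopper-Pearson intervals. UMIs are molecules, and both kinds of interval cover counting error only. Genes that reached 20 UMIs in the libraries together were measured, and 1.5-fold was the limit for higher or lower. A gene without knockout UMIs was set to a floor of 3 counts over the class. Named genes between genotypes were the 12 highest and the 12 lowest by the interval bound nearest to 1, among genes with at least 30 UMIs and, in the library where they were higher, at least 10 cells. Against the other mesenchyme they were the 25 highest and 15 lowest by the ratio nearer to 1, among genes with at least 30 UMIs in each library. Rule, mitochondrial, ribosomal, haemoglobin, Y-linked genes and Xist were not named. Further examples came from 36 gene lists. Some genes that these rules name are not reported here. The members and lists were chosen with earlier results of these data known. No comparison has a test, since each genotype is 1 library. Scrublet called 4 knockout and 20 control barcodes as doublets (0.238% and 0.859% of kept cells), and of the members 0 and 1. The low knockout rate means that doublets may remain. They were kept, and leaving them out was an alternative.

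Other alternatives covered the cell filter, depth, sum A, the gates, cell weight, scaling, the minimum count, sex and single cells. Promoter windows of 250 bases came from RefSeq (GRCm38.p6) and gene positions from GENCODE (GRCm38). Python 3.11.15, numpy 2.4.6, scipy 1.17.1, pandas 2.3.3, matplotlib 3.10.9 and scanpy 1.11.5 (for Scrublet) were used, and the calculations were tested on simulated data.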

Additional observations from a re-analysis of the deposited data

Results flagged for a closer look

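The share of Col9-expressing cells in the gated mesenchyme lay on opposite sides of 1 in cells of different sex. The ratio of knockout to control was 0.612 in cells with Xist, from 24 of 162 knockout cells (14.8%) and 76 of 314 control cells (24.2%). It was 1.25 in cells with Y-linked UMIs, from 10 of 44 knockout cells (22.7%) and 8 of 44 control cells (18.2%), and its interval, 0.444 to 3.64, holds the first value. The difference between the sexes was not tested.

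Barcodes left out by the cell filter also met the rule for Col9-expressing cells. They were 14 of 880 in the knockout library and 38 of 1158 in the control library, with median depths of 4564.5 and 5989.5 UMIs and median mitochondrial shares of 13.6% and 15.1%. The mitochondrial limit left out 14 and 37 of them.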

How the results depend on the processing

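Each value rests on 1 library per genotype, with fewer UMIs per cell in knockout members. No paired analysis was possible because each genotype has 1 library. The share of mesenchyme was 1.70 under the stricter filter and 1.25 in cells with Y-linked UMIs, and the share of kept cells was 0.923 there. Genes at least 1.5-fold higher and lower in knockout members, 1256 and 1574, were 674 and 725 with members thinned, 374 and 367 in Y-linked cells, 610 and 752 at a minimum of 50 UMIs, and 2242 and 2604 at a minimum of 5 UMIs. Genes higher and lower in members of both libraries, 182 and 421, were 59 and 49 under the stricter filter, 102 and 188 in Y-linked cells, 105 and 222 at 50 UMIs, and 391 and 836 at 5 UMIs. In Y-linked cells the sign turned for the immediate early median (−0.23), Fos (0.669), Hspa1a (0.854), Col9a3 (1.08), Col9a1 (1.72), Scube1 (1.10), Col16a1 (1.06), Col6a3 (1.19), Id4 (0.842), Msx1 (0.796), Ptch1 (1.15) and Dlx2 (0.546), and against the knockout mesenchyme for Hopx (0.930) and Grin3a (0.585). The stricter filter turned Irx3 (0.711) and Scrn1 (0.569) against the knockout mesenchyme, and a minimum of 50 UMIs turned the interferon median (−0.19). The cause was not tested. Some list medians had no value where too few genes were measured.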

Other observations

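Of 11 measured interferon response genes, 6 were at least 1.5-fold higher in knockout members and 2 were lower, with a median log2 ratio of 0.96, and the median was −0.19 when at least 50 UMIs per gene were asked for. Among 16 elastic fibre and crosslinking genes, 3 were higher (18.8%) and 2 were lower (12.5%), near the 14.2% and 17.8% over all genes. The higher ones included Lox, which crosslinks collagen and elastin, at a ratio of 2.99, and P4ha1, a collagen hydroxylase gene, at 3.06. Of 11 matrix proteases and their inhibitors 4 were higher (36.4%), among them Adamts1 (2.43) and Timp3 (2.06), and 2 were lower (18.2%).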
